A study of Mus musculus with 22 samples.

Results

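Inguinal subcutaneous fat (ingWAT) was compared with epididymal fat (epiWAT) in male C57BL/6J mice that carried Gipr-/- /S100a9-/- bone marrow, called double-knockout (DKO) marrow here. The comparison took all 3 ingWAT and all 4 epiWAT arrays whose titles name this marrow, 7 of the 22 arrays in the series, and it covers every gene measured. Gipr encodes the receptor of the gut hormone GIP, and S100a9 encodes a calcium-binding alarmin protein of neutrophils and monocytes. Both genes were missing from the transplanted marrow behind all 7 samples compared, so the contrast is one of depot and not of marrow genotype. Marrow was given 6 weeks to reconstitute the host, and a diet with 60% of its calories from fat followed for 14 weeks. The other arrays hold the same depots with WT marrow (4 ingWAT, 4 epiWAT) or Gipr-/- marrow (3 ingWAT, 4 epiWAT), both given to WT hosts. Which host received the double-knockout marrow is not stated in the labels read for this work. Fat cells, fibroblasts, vessels and mesothelium are mainly host cells in such a chimera, while blood-borne immune cells come mainly from the donor. The labels tie no ingWAT array to an epiWAT array of the same mouse nor say that every array had its own mouse, and p-values thus reflect only the variation among these samples, which may be technical. Arrays are numbered within each group in accession order.

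The 2 depots are known to differ in origin and build. Inguinal fat lies under the skin beside the inguinal lymph node and body wall muscle, keeps a developmental code of subcutaneous transcription factors and can form beige fat cells. Epididymal fat is a visceral depot that borders the epididymis and is covered by mesothelium, the epithelial-like lining of the body cavity, whose marker genes include Wt1, Upk3b and Msln. In whole tissue, fewer cells of a type and less RNA per cell cannot be told apart.

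All values are deposited log2 values, and a difference is ingWAT minus epiWAT on that scale, with its standard error (SE) from one limma fit of all 22 arrays. Within the groups, arrays correlated with r between 0.941 and 0.983 in ingWAT and between 0.907 and 0.984 in epiWAT. Between the depots r lay between 0.874 and 0.965. The median level of 22 mature adipocyte genes lay between 16.52 and 16.87 in ingWAT and between 14.22 and 16.62 in epiWAT, so both tissues carried the fat cell signature. Olfactory receptor genes, taken as near background, had a median value of 3.75, with the 5th and 95th percentiles at 2.83 and 5.08.

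Several arrays stood apart within their group. IngWAT arrays 1 and 3 held genes of lymphocytes and of lymph node vessels that array 2 lacked. Cd3e, a chain of the T cell receptor complex, measured 12.21, 6.08 and 11.92 in ingWAT arrays 1, 2 and 3. Glycam1, which marks the high endothelial venules of lymph nodes, measured 9.01, 3.88 and 10.08. EpiWAT arrays 1 and 3 held genes of the epididymal epithelium, with list scores of 7.4 and 3.39 against 0.82 and -0.63 in arrays 2 and 4. Cuzd1, which is not on that list, had a like pattern. Cuzd1 measured 18.84, 11.42, 18.27 and 11.06 in epiWAT arrays 1 to 4. IngWAT arrays 1 and 2 held more skeletal muscle RNA than array 3. Myh4, a fast myosin heavy chain, measured 16.05, 18.47 and 9.26 there. Results below are therefore given with all arrays, and the calls that ended without ingWAT arrays 1 and 3 (the ingWAT pair) or without epiWAT arrays 1 and 3 (the epiWAT pair) are named. Leaving out a pair leaves 1 ingWAT or 2 epiWAT arrays, whose spread is then taken from the other groups.

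**Figure D1:**
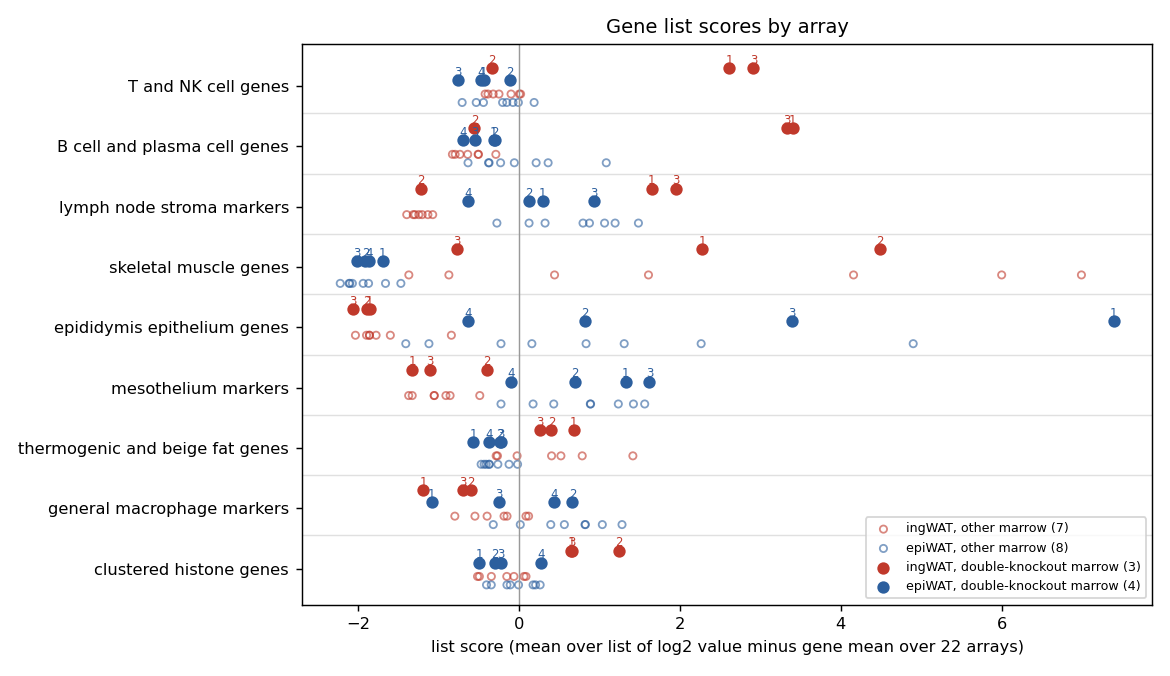
Gene list scores in all 22 arrays, where a score is the mean over a list's tested genes of the log2 value minus that gene's mean over the 22 arrays. Filled points are the DKO marrow arrays with their number, red for ingWAT and blue for epiWAT, and open points are arrays with WT or Gipr-/- marrow. For T and NK cell genes, ingWAT arrays 1 and 3 score 2.61 and 2.91 while array 2 scores -0.34, and for epididymis genes epiWAT arrays 1 and 3 score 7.4 and 3.39.

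With double-knockout marrow, 568 of 14503 genes tested differed between the depots (3.92%, limma, Benjamini-Hochberg adjusted p under 0.05). Of these, 248 (1.71%) were higher and 320 (2.21%) were lower in ingWAT. The counts of list members called below stand beside these shares. The higher calls had a median difference of 1.76 and the lower calls one of -1.51, while the median over all genes tested was -0.02. The split between directions depended on the scaling. It was 43.7% higher with the values as deposited, 56.2% (241 higher, 188 lower) with each array centred on its median, and 57.4% (314 higher, 233 lower) after quantile normalization. Among all genes tested, the 3 ingWAT arrays lay wholly above the 4 epiWAT arrays for 953 genes (6.57%) and wholly below them for 1298 genes (8.95%).

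The number of calls rested on single arrays. Without ingWAT array 1 it was 42 higher and 56 lower, without ingWAT array 3 it was 70 and 125, and without ingWAT array 2 it was 515 and 281. Without epiWAT array 3 it was 100 and 123, without epiWAT array 1 it was 154 and 261, and without epiWAT array 4 it was 361 and 502. Fitted on the 7 arrays alone, 6 genes were called higher and 8 lower. Calls made with all arrays that were also made without each one of the 7 arrays in turn numbered 32 higher and 45 lower. Of these, 9 higher and 21 lower were also called without ingWAT arrays 1 and 3 and without epiWAT arrays 1 and 3.

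The transcription factor genes Tbx15, Shox2 and Hoxc10, which mark subcutaneous fat, were higher in ingWAT. Of 18 subcutaneous patterning genes measured, 13 passed the filter on low values, and En1, Irx1, Irx5, Zic1 and Hoxc13 did not. Of the 13 tested, 3 (23.1%) were called higher, against 1.71% of all genes tested, and 0 lower. The list's median difference was 0.77 against -0.02 for all genes tested. Tbx15, a T-box factor of subcutaneous preadipocytes, measured 6.75, 7.55 and 6.73 in ingWAT and 4.04, 3.83, 3.37 and 4.12 in epiWAT. The depots did not overlap, and the difference was 3.17 (SE 0.57, adjusted p = 0.00586). Shox2, a homeobox factor of limb and body wall mesenchyme, measured 5.84, 7.22 and 6.74 in ingWAT and 3.41, 4.0, 3.83 and 4.9 in epiWAT, a difference of 2.57 (SE 0.47, adjusted p = 0.00667). Hoxc10, a posterior Hox gene, measured 6.76, 7.54 and 7.21 in ingWAT and 4.66, 3.77, 4.16 and 3.74 in epiWAT, and differed by 3.09 (SE 0.63, adjusted p = 0.0122). The epiWAT values of Tbx15, Shox2 and Hoxc10 lay in the range of the olfactory receptor genes, so background bounds these differences and no fold is given. Tbx15 kept its call without either pair of arrays. Hoxc10 lost it without ingWAT arrays 1 and 3 (adjusted p = 0.0782), and Shox2 lost it without epiWAT arrays 1 and 3 (adjusted p = 0.0582).

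The remaining subcutaneous factors did not pass the test with all arrays. Hoxc9 was 0.86 higher in ingWAT without overlap (adjusted p = 0.066), and Hoxa10 differed by 1.39 (adjusted p = 0.363) with overlapping arrays. Irx2 and Irx3, Iroquois homeobox genes, differed by 0.89 and 0.28 (adjusted p = 0.539 and 0.815). Twist1 differed by 0.77 (adjusted p = 0.239), Meox1 by 0.61 (adjusted p = 0.403) and Lmx1b by 0.63 (adjusted p = 0.287). Sim1, Dmrt2 and Sfrp2 had negative differences of -2.0, -1.54 and -1.41 (adjusted p = 0.241, 0.15 and 0.311). Without the epiWAT pair Dmrt2 was called lower (-2.55, adjusted p = 0.0286). Of 20 Hox genes tested, only Hoxc10 was called higher and only Hoxc4 lower. Hoxc4, a more anterior gene of the same cluster, measured 4.62, 4.66 and 4.93 in ingWAT and 5.63, 6.1, 6.31 and 5.56 in epiWAT, a difference of -1.17 (SE 0.27, adjusted p = 0.0228). Its call ended without the ingWAT pair (adjusted p = 0.139) and without the epiWAT pair (adjusted p = 0.103). Hoxc8 and Hoxc6, which lie between them in the HoxC cluster, differed by -0.09 and -0.3 (adjusted p = 0.945 and 0.704). Hox genes of the B cluster were lower in mean without passing the test, with Hoxb5 at -0.9 (adjusted p = 0.134) and Hoxb7 at -1.29 (adjusted p = 0.282).

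**Figure D2:**
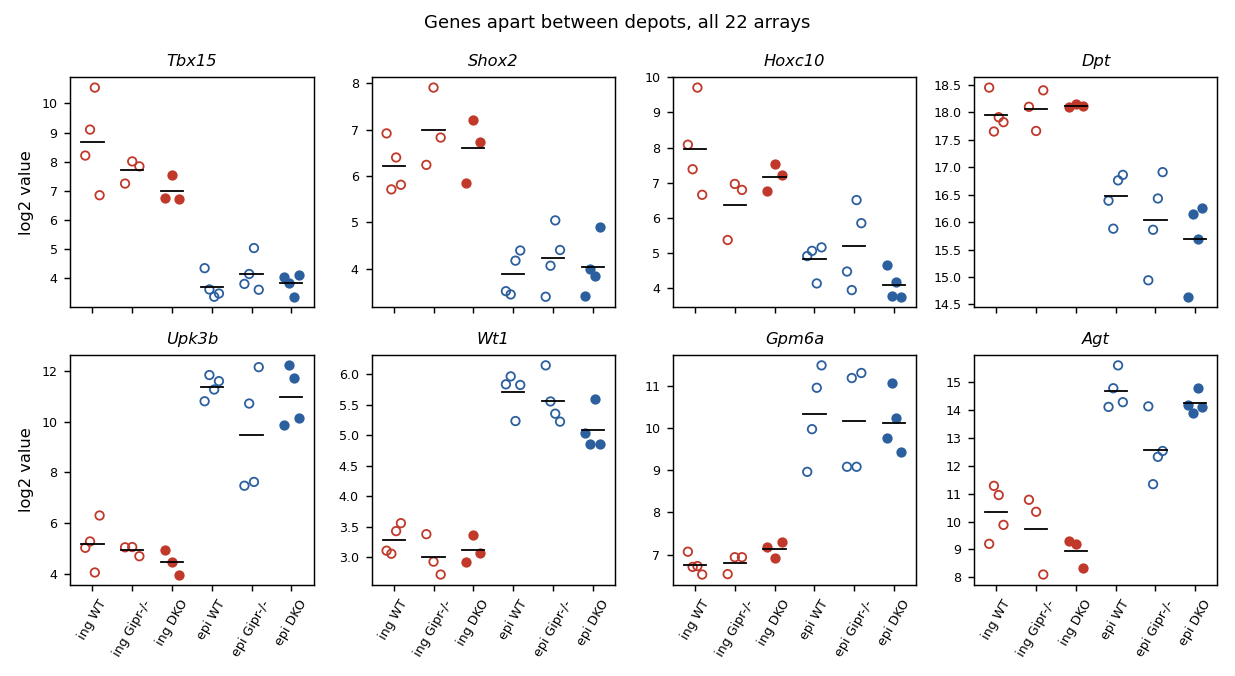
Log2 values of 8 genes in all 22 arrays, by depot (ing, epi) and marrow (WT, Gipr-/-, DKO), with filled points for DKO marrow and a bar at each group mean. In the top row all 3 ingWAT arrays with DKO marrow lie above all 4 epiWAT arrays, and in the bottom row they lie below them, as for Agt with 8.33 to 9.32 against 13.91 to 14.79.

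Mesothelium markers were lower in mean in ingWAT, led by Upk3b and Wt1. Of 20 mesothelium markers tested, 6 (30.0%) were called lower, against 2.21% of all genes tested, and 0 higher. A negative difference was found in 17, and the median was -1.86. The list score lay between -1.33 and -0.4 in ingWAT and between -0.1 and 1.62 in epiWAT. Upk3b, a uroplakin of the mesothelial surface, measured 4.95, 4.48 and 3.99 in ingWAT and 9.86, 12.21, 11.72 and 10.15 in epiWAT. The difference was -6.51 (SE 0.85, adjusted p = 0.000667). IngWAT lay in the background range, so no fold is given. Wt1, the Wilms tumour transcription factor of mesothelium and visceral fat progenitors, measured 2.93, 3.36 and 3.07 in ingWAT and 5.04, 4.85, 5.59 and 4.85 in epiWAT. It differed by -1.96 (SE 0.27, adjusted p = 0.00091), and both levels were low on this array. Upk3b and Wt1 kept their calls without either pair of arrays.

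The other called mesothelial genes were Upk1b, Gpm6a, Nkain4 and Msln. Upk1b, a partner of other uroplakins, measured 4.55, 4.8 and 4.61 in ingWAT and 6.52, 8.46, 8.53 and 7.6 in epiWAT, a difference of -3.13 (adjusted p = 0.0118). Gpm6a, a membrane glycoprotein, measured 7.17, 6.93 and 7.3 against 9.76, 11.07, 10.24 and 9.43, a difference of -2.99 (adjusted p = 0.00798). Nkain4 differed by -2.82 (adjusted p = 0.00663). Msln, mesothelin, measured 4.51, 4.13 and 3.88 against 5.02, 6.71, 6.17 and 5.79, a difference of -1.75 (adjusted p = 0.0264). These 4 genes did not overlap between the depots and lost their calls without ingWAT arrays 1 and 3, at adjusted p between 0.0744 and 0.169.

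Of 22 visceral patterning genes measured, 16 passed the filter. Of these, 3 (18.8%) were called lower in ingWAT, against 2.21% of all genes tested, and 0 higher, with a median of -0.3. Besides Wt1 these were Tcf21 and Gpc4. Tcf21, a basic helix-loop-helix factor of visceral preadipocytes, measured 4.48, 4.79 and 3.78 in ingWAT and 8.95, 6.14, 7.14 and 6.45 in epiWAT, a difference of -2.82 (SE 0.63, adjusted p = 0.0182). Its call ended without the ingWAT pair (adjusted p = 0.225) and without the epiWAT pair (adjusted p = 0.121). Gpc4, a cell surface glypican, measured 8.56, 9.44 and 8.72 against 11.41, 11.5, 10.94 and 11.13, a difference of -2.34 (SE 0.28, adjusted p = 0.000389) that held without either pair. Osr1, a factor of intermediate mesoderm, differed by -1.35 without overlap and without passing the test (adjusted p = 0.111). Gata4 and Gata6 differed by 0.1 and -0.3 (adjusted p = 0.918 and 0.56), and Nr2f1, Bnc1, Tbx5, Tbx18 and Thbd did not pass either.

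The same depots with WT and with Gipr-/- marrow give arrays that did not enter the double-knockout means, although the 3 contrasts share one estimate of the spread. Of the 248 genes called higher in ingWAT with double-knockout marrow, 20 (8.06%) were also called higher with WT marrow, where 1.03% of all genes tested were, and 142 (57.3%) had the same sign there. Of the 320 called lower, 60 (18.8%) were also called lower with WT marrow, against 0.931% of all genes tested, and 312 (97.5%) had the same sign. Over all genes tested, 65.1% had the same sign and 284 (1.96%) were called with WT marrow, so the 80 shared genes were 28.2% of the WT marrow calls. With Gipr-/- marrow, 89 genes (0.614%) were called, 52 of them higher (0.359%) and 37 lower (0.255%), of which 11 were shared in the higher and 12 in the lower direction. There 56.0% of the higher and 62.5% of the lower calls had the same sign, against 57.6% of all genes tested. Rpsa, a protein of the small ribosomal subunit, was called in opposite directions, at 1.29 with double-knockout and -1.2 with Gipr-/- marrow. Across the 14503 genes, which are not independent, the differences correlated with r = 0.666 between double-knockout and WT marrow and with r = 0.483 between double-knockout and Gipr-/- marrow.

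**Figure D3:**
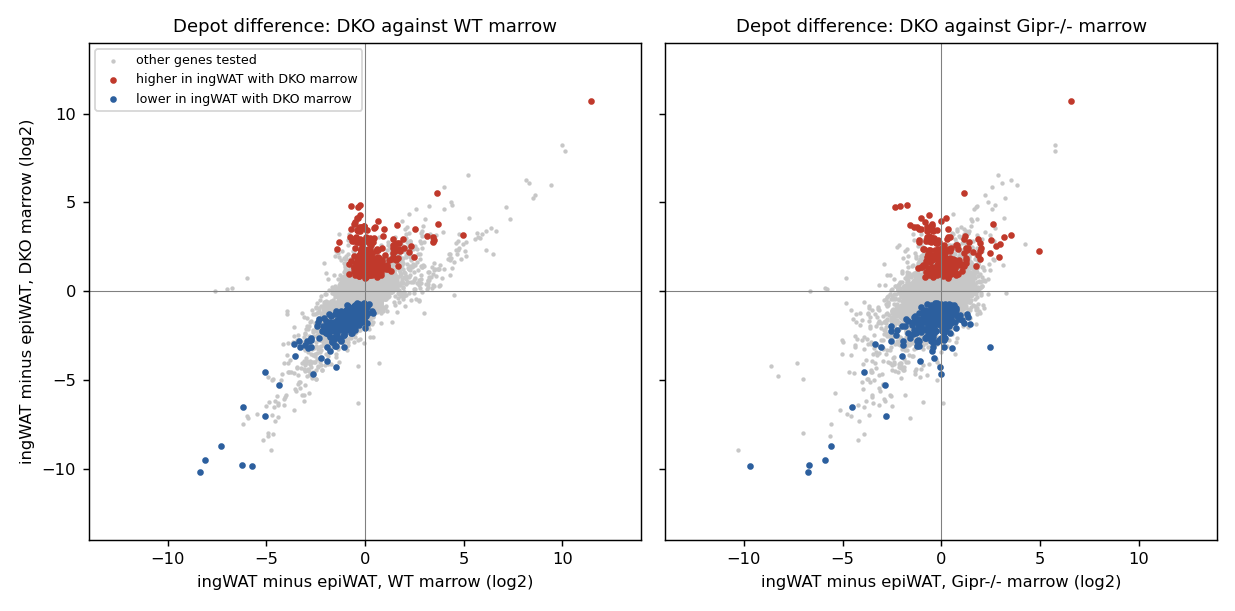
Difference between depots (ingWAT minus epiWAT, log2) for the 14503 genes tested, with DKO marrow on the vertical axis against WT marrow (left) or Gipr-/- marrow (right) on the horizontal axis. Red points are the 248 genes called higher and blue points the 320 called lower with DKO marrow; many red points stand on the vertical line at 0, and with WT marrow 97.5% of blue points lie left of it.

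A set of 16 genes was called in the same direction with all 3 kinds of marrow, 5 higher and 11 lower in ingWAT. The higher genes were Tbx15, Shox2, Grb14, Dpt and St6galnac5. The lower genes were Upk3b, Upk1b, Wt1, Gpm6a, Agt, Penk, Gstm1, Lgmn, Ccbe1, Kcnt2 and Spock2. Dpt, which encodes the matrix protein dermatopontin, measured 18.09, 18.16 and 18.12 in ingWAT and 14.64, 16.15, 15.7 and 16.25 in epiWAT (2.44, SE 0.41, adjusted p = 0.00345). St6galnac5, a sialyltransferase, measured 9.97, 10.73 and 9.93 against 5.98, 7.37, 6.91 and 8.39 (3.05, SE 0.55, adjusted p = 0.00586). Tbx15 differed by 4.97 with WT and 3.55 with Gipr-/- marrow, Upk3b by -6.19 and -4.54, and Agt by -4.36 and -2.84. In the whole series all 10 ingWAT arrays lay above all 12 epiWAT arrays for 22 genes (0.152%) and below them for 31 (0.214%). Of these, 11 and 17 were called with double-knockout marrow. They include Zfhx4, a zinc finger homeobox factor that measured 9.1, 9.87 and 8.47 in ingWAT and 6.6, 6.16, 6.35 and 5.63 in epiWAT (2.96, SE 0.45, adjusted p = 0.00233), and Aldh1a2, which makes retinoic acid (-1.71, adjusted p = 0.0207). Dpt, St6galnac5, Zfhx4 and Aldh1a2 are named because of these overlaps, after their values were seen. The calls of Dpt (adjusted p = 0.0606) and Aldh1a2 (adjusted p = 0.408) ended without the ingWAT pair, and those of St6galnac5 (adjusted p = 0.0532) and Aldh1a2 (adjusted p = 0.121) without the epiWAT pair.

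The promoters of 4 of these genes, 2 lower and 2 higher in ingWAT, are shown because they stood apart with every kind of marrow. The sequences run from 250 bases before to 50 bases after the start of the gene in RefSeq (build GRCm38.p6) and are written 5' to 3' on the gene's strand. Of the 16 genes, 10 have an entry. Capitals mark the letters TATAAA and the letters CCAAT, searched on both strands and at any position. They lie at chr5:136038246-136038545, plus strand for Upk3b, chr8:124569657-124569956, minus strand for Agt, chr3:66981722-66982021, minus strand for Shox2 and chr1:164796413-164796712, plus strand for Dpt. TATAAA begins at position -30 from the start in the Agt sequence, at -203 in Shox2 and at 12, past the start, in Dpt. The Upk3b sequence holds neither motif. TATAAA occurs in 13.6% and CCAAT in 37.4% of all 32851 promoters of this length in the table. A match describes letters only.
Upk3b: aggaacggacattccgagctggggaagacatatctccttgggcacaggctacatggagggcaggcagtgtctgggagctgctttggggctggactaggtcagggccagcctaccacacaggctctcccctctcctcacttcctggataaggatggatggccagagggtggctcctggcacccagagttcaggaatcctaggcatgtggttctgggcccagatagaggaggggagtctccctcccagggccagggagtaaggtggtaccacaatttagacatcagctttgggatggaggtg
Agt: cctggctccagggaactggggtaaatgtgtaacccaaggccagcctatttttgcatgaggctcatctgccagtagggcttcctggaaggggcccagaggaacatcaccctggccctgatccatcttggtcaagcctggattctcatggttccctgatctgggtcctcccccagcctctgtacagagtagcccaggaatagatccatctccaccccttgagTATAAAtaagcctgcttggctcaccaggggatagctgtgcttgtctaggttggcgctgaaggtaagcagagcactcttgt
Shox2: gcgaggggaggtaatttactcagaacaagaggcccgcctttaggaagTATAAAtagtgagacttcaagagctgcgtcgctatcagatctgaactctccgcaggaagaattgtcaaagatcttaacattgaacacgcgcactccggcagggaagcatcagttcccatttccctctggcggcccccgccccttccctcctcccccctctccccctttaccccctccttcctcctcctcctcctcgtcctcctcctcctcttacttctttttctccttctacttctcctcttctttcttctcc
Dpt: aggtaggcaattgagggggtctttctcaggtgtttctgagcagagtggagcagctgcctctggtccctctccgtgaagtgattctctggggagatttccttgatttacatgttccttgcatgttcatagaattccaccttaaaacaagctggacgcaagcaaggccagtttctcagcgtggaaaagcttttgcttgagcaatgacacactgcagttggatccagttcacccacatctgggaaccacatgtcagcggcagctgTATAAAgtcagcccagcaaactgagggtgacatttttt

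Lymphocyte genes were higher in ingWAT through the values of arrays 1 and 3. Of 23 T and NK cell genes tested, 12 (52.2%) were called higher, against 1.71% of all genes tested, and 0 lower. Their median difference was 2.3. Of 17 B cell and plasma cell genes, 10 (58.8%) were called higher and 0 lower, with a median of 2.71. Without ingWAT arrays 1 and 3 the medians were -0.01 and -0.08 and 0 members of either list were called. Without epiWAT arrays 1 and 3 the medians were 2.06 and 2.82, with 2 and 1 members called. With WT marrow the medians were 0.08 and -0.04, and with Gipr-/- marrow 0.14 and -0.62. The median level of 25 T and NK cell genes was 8.83, 5.26 and 8.67 in ingWAT and lay between 4.99 and 5.77 in epiWAT. Cd79a, a signalling chain of the B cell receptor, measured 12.78, 5.06 and 11.92 in ingWAT and 5.85, 5.68, 4.78 and 4.24 in epiWAT. Its difference of 4.78 (SE 1.26, adjusted p = 0.0365) was -0.08 without arrays 1 and 3. Cd8a, the coreceptor of cytotoxic T cells, measured 11.85, 5.09 and 12.06 against 5.67, 6.37, 5.07 and 4.45. Ptprc, the pan-leukocyte antigen CD45, measured 15.85, 11.43 and 15.99 against 9.79, 10.91, 10.84 and 11.53. In each of these genes array 2 lay within the epiWAT range and arrays 1 and 3 lay above it.

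Some genes of lymph node stroma and of lymphocytes moved in the same arrays. Cxcl13, a chemokine that draws B cells into follicles, measured 15.97, 10.86 and 15.53 in ingWAT and 8.49, 10.1, 10.68 and 7.73 in epiWAT, a difference of 4.87 (SE 0.95, adjusted p = 0.00868). Cxcr5, its receptor, measured 8.5, 4.77 and 7.86 against 4.52, 4.42, 3.92 and 4.49 (2.71, adjusted p = 0.0211). Ccr7, which guides lymphocytes into lymph nodes, measured 8.84, 7.13 and 8.67 against 6.88, 6.86, 6.32 and 6.28 (1.63, adjusted p = 0.0266). All of these calls ended without the ingWAT pair, and those of Cxcr5 and Ccr7 also without the epiWAT pair (adjusted p = 0.0975 and 0.0961). The 9 lymph node stroma markers tested were mixed, with 6 positive and 3 negative differences and a median of 0.17. Their list score was 1.65, -1.23 and 1.95 in ingWAT and 0.29, 0.12, 0.93 and -0.63 in epiWAT. Among them, Glycam1 and Cxcl13 were called higher and Pdpn was called lower (-2.18, adjusted p = 0.00674). Pdpn encodes podoplanin, which mesothelium also carries. Among 15 dendritic cell and MHC class II genes, H2-Ob (3.39, adjusted p = 0.017) and Siglech, a marker of plasmacytoid dendritic cells (1.31, adjusted p = 0.0175), were called higher. The calls of Pdpn, H2-Ob and Siglech ended in both settings, at adjusted p between 0.152 and 0.757 without the ingWAT pair and between 0.0696 and 0.136 without the epiWAT pair. Of the 248 higher calls, 114 had a mean of ingWAT arrays 1 and 3 more than 1 log2 unit above array 2, and 134 did not. The count over all genes tested is not given here, so the 114 calls describe only where the values lie. The part of lymph node tissue in the higher calls was not tested.

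**Figure D4:**
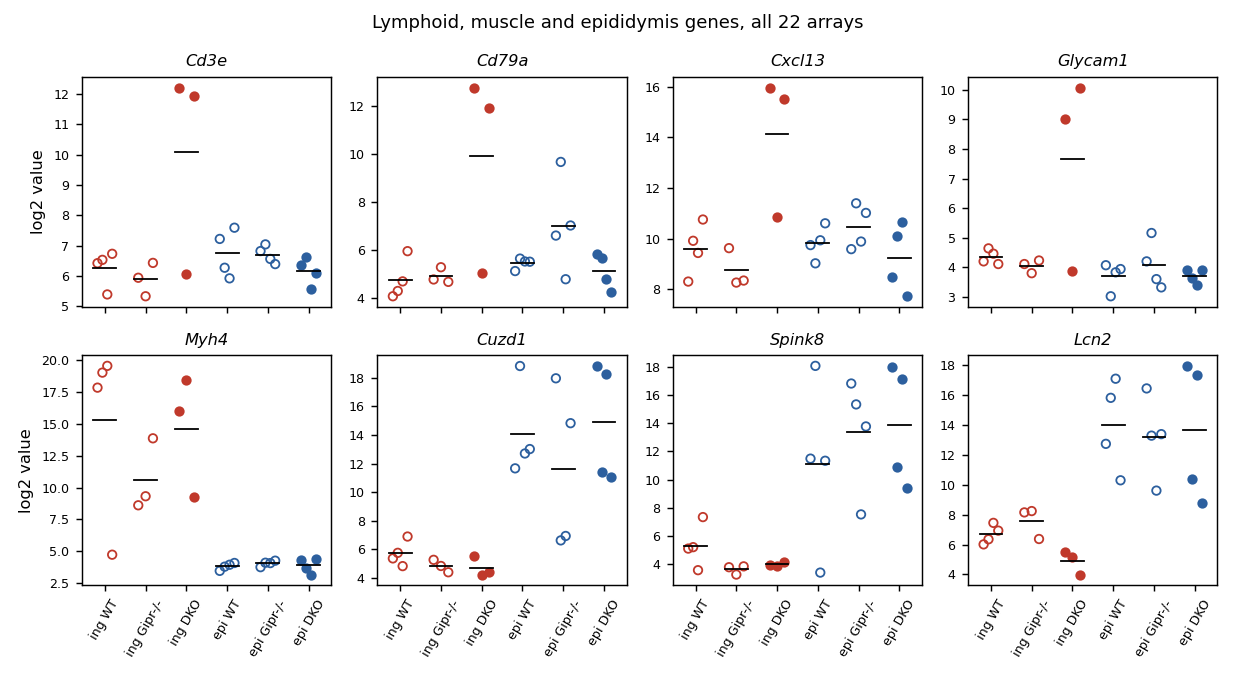
Log2 values of lymphoid genes (Cd3e, Cd79a, Cxcl13, Glycam1), a muscle gene (Myh4), an epididymis gene (Spink8) and genes with a like pattern (Cuzd1, Lcn2) in all 22 arrays, by depot and marrow. Filled points are DKO marrow, with a bar at each group mean. Cd3e is 12.21 and 11.92 in 2 ingWAT arrays with DKO marrow and 6.08 in the third, and Cuzd1 is 18.84 and 18.27 in 2 of the 4 epiWAT arrays with DKO marrow.

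Genes of the epididymis, and genes with a like pattern over the arrays, were among the lowest differences in ingWAT. Of those named here, Spink8 and Adam7 were on the epididymis list. Cuzd1 differed by -10.16 (SE 2.36, adjusted p = 0.0215), with 5.52, 4.24 and 4.44 in ingWAT. Spink8, a protease inhibitor, measured 3.94, 3.9 and 4.17 in ingWAT and 17.95, 10.93, 17.12 and 9.4 in epiWAT, a difference of -9.84 (adjusted p = 0.0356). Adam7, a membrane protein of the epididymis, measured 4.13, 3.27 and 3.19 against 18.09, 9.73, 16.62 and 7.7 (-9.51, adjusted p = 0.0312). Defb38, a beta-defensin, differed by -9.77 (adjusted p = 0.0497). Lcn2, lipocalin 2, is made by epididymal epithelium as well as by neutrophils and fat cells, and measured 5.52, 5.19 and 3.99 against 17.96, 10.41, 17.38 and 8.81 (-8.74, adjusted p = 0.0175). Gstm7 differed by -7.02 (adjusted p = 0.0474). All epiWAT arrays lay above all ingWAT arrays in these genes, and epiWAT arrays 1 and 3 lay far above arrays 2 and 4. None of the 6 kept its call without the epiWAT pair, at adjusted p between 0.153 and 0.406, or without the ingWAT pair, at adjusted p between 0.15 and 0.323.

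Of 29 epididymis genes measured, 19 passed the filter on low values. The median level of the 29 lay between 3.9 and 4.17 in ingWAT, under the lowest mean of a tested gene, 4.4. Members at such levels passed through higher values in other arrays, so the count of negative signs adds no support. Those left out went both ways, as Cst12 (4.26 in ingWAT, 3.53 in epiWAT) and Ovch2 (3.88 and 5.05). Of the 19 tested, 2 were called lower and 17 had a negative difference. The median was -4.51, and -1.27 without epiWAT arrays 1 and 3. With WT and Gipr-/- marrow the median was -2.46 and -1.84. Of the 320 lower calls, 63 had a mean of epiWAT arrays 1 and 3 more than 1 log2 unit above that of arrays 2 and 4. These included Penk, the precursor of enkephalins (15.22, 11.3, 15.01 and 11.85 in epiWAT; -4.56, adjusted p = 0.0087), and Mgp, matrix Gla protein (13.25, 11.97, 13.88 and 11.29; -3.62, adjusted p = 0.00861). Both lost their calls without the epiWAT pair (adjusted p = 0.0871 each) and without the ingWAT pair. The count over all genes tested is not given here, so the 63 calls describe only where the values lie.

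Skeletal muscle genes were higher in mean in ingWAT, with 1 of 23 called. All 23 had a positive difference, and the median was 3.41, against 6.16 with WT and 1.79 with Gipr-/- marrow. Myh4 measured 4.35, 3.7, 3.17 and 4.38 in epiWAT, and its difference was 10.69 (SE 2.52, adjusted p = 0.0232). Atp2a1, the calcium pump of fast fibres, and Mylpf, a fast myosin light chain, differed by 7.88 and 6.26 without passing the test (adjusted p = 0.0546 and 0.0582). The list score in ingWAT was 2.28, 4.48 and -0.78, so array 3 held the least muscle RNA. Of 10 Schwann cell and nerve genes tested, 5 had a positive and 5 a negative difference, with a median of 0.11. Called higher were the myelin gene Mbp (3.8, adjusted p = 0.0127), the glial cadherin Cdh19 (1.95, adjusted p = 0.0183) and Nnat, described below. The list score lay between -0.26 and 0.07 in ingWAT and between -0.89 and 1.18 in epiWAT. Mbp measured 7.8, 10.04 and 8.38 in ingWAT and 5.42, 4.59, 4.26 and 5.5 in epiWAT. It was highest in array 2, with the most muscle RNA, but higher in array 3, with the least, than in array 1. The calls of Myh4, Mbp and Cdh19 ended without the epiWAT pair (adjusted p = 0.0959, 0.0558 and 0.0911), and that of Cdh19 also without the ingWAT pair (adjusted p = 0.0864). The part of muscle nerve in this result was not tested. Dsc3, a desmosomal cadherin of stratified epithelium, measured 9.22, 11.27 and 8.76 in ingWAT and 3.91, 4.18, 4.45 and 4.29 in epiWAT, a difference of 5.54 (SE 0.99, adjusted p = 0.00567) that held without either pair of arrays.

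Of 22 mature adipocyte genes, 18 had a positive difference, with a median of 0.43 that became -0.02 without the epiWAT pair. Agt, angiotensinogen, was the only one called, and it was lower. Its values of 9.32, 9.18 and 8.33 in ingWAT lay below 14.17, 13.91, 14.79 and 14.09 in epiWAT, and the difference was -5.3 (SE 0.64, adjusted p = 0.000389), or 39.4-fold. Gamt, which makes creatine from guanidinoacetate, measured 8.58, 9.21 and 8.39 against 13.93, 12.27, 13.49 and 12.18 (-4.24, SE 0.56, adjusted p = 0.000667). Hspb7, a small heat shock protein, measured 7.33, 8.34 and 6.26 against 10.48, 12.76, 12.09 and 12.55 (-4.66, adjusted p = 0.0056). Pcbd1, which recycles the tetrahydrobiopterin cofactor, measured 8.2, 7.47 and 8.04 against 12.6, 10.81, 10.68 and 10.9 (-3.35, adjusted p = 0.000757). Agt, Gamt and Pcbd1 kept their calls without either pair of arrays, while Hspb7 lost its call without the ingWAT pair (adjusted p = 0.145). Gamt and Hspb7 had differences near 0 with Gipr-/- marrow (-0.06 and -0.01).

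In lipid metabolism, Acly and Gpam were the only 2 of 22 lipogenesis genes called, both lower in ingWAT. Acly, which makes cytosolic acetyl-CoA, measured 12.56, 13.45 and 12.7 against 15.79, 14.21, 13.98 and 14.15 (-1.63, adjusted p = 0.0218). Gpam, the mitochondrial acyltransferase that starts triglyceride synthesis, differed by -1.47 (adjusted p = 0.0391) with overlapping arrays. Both lost their calls without the ingWAT pair (adjusted p = 0.357 and 0.519), and Acly also without the epiWAT pair (adjusted p = 0.0767). Cpt1a, which passes long-chain fatty acids into mitochondria, was the only one of 19 fatty acid oxidation genes called and went against the rest of its list. It measured 9.53, 9.07 and 9.47 against 10.82, 11.48, 10.72 and 10.72 (-1.58, SE 0.25, adjusted p = 0.00335) and held without either pair, while 18 of the 19 genes had a positive difference and the median was 0.66. Nsdhl, an enzyme of cholesterol synthesis, measured 10.91, 11.08 and 11.16 against 14.21, 13.52, 13.87 and 13.16 (-2.64, adjusted p = 0.000667). Cers4, a ceramide synthase, measured 11.12, 10.47 and 11.17 against 12.34, 13.61, 13.66 and 12.38 (-2.08, adjusted p = 0.0034). Nsdhl and Cers4 also held without either pair. Of 15 lipolysis, 20 branched-chain amino acid breakdown and 35 oxidative phosphorylation genes, 0 were called. Their medians were 0.6, 0.42 and 0.33, and 30 of the 35 oxidative phosphorylation genes had a positive difference. Without the epiWAT pair these medians were -0.22, 0.0 and 0.17, and that of the fatty acid oxidation genes was 0.06.

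Of 20 thermogenic and beige fat genes tested, 4 were called higher in ingWAT and 0 lower, and 16 had a positive difference, with a median of 0.84. Cox8b, a muscle and brown fat form of a cytochrome oxidase subunit, measured 9.39, 10.41 and 9.4 in ingWAT and 5.47, 6.93, 5.95 and 6.44 in epiWAT (3.53, SE 0.71, adjusted p = 0.0111). Cidea, a lipid droplet protein of brown and beige fat, measured 8.69, 8.01 and 8.35 against 5.91, 6.55, 5.53 and 5.98 (2.36, adjusted p = 0.0209). Tmem26 and Tnfrsf9, proposed beige cell markers, differed by 0.89 and 1.31 (adjusted p = 0.0374 and 0.0363). Ucp1 was left out by the low-value filter, with a mean of 4.85 in ingWAT and 3.54 in epiWAT. None of the 4 calls remained without ingWAT arrays 1 and 3 or without epiWAT arrays 1 and 3. Cox8b is also a muscle gene. Its highest value lay in ingWAT array 2, where the muscle list score was 4.48. Arrays 1 and 3 measured 9.39 and 9.4, with muscle list scores of 2.28 and -0.78. The part of muscle RNA in this call was not tested.

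Insulin signalling held 1 call among 19 genes. Grb14, an adaptor that binds and inhibits the insulin receptor, measured 7.87, 8.58 and 8.13 in ingWAT and 5.54, 6.21, 6.49 and 5.39 in epiWAT (2.28, SE 0.38, adjusted p = 0.00345). It held without either pair of arrays. Foxo1 differed by 1.65 without overlap (adjusted p = 0.07). Among 24 adipokines and secreted factors, Agt, Lcn2 and Fgf1 were called lower. Fgf1, a growth factor of fat remodelling, measured 7.63, 8.01 and 7.97 against 8.21, 10.94, 10.2 and 10.09 (-1.99, adjusted p = 0.0276). Among 16 metabolic receptors, the oxytocin receptor Oxtr was called lower, with 7.35, 9.12 and 8.95 against 9.69, 12.46, 12.37 and 11.92 (-3.14, adjusted p = 0.0335). With Gipr-/- marrow its difference was 2.47 (adjusted p = 0.167). The calls of Fgf1 and Oxtr ended without the ingWAT pair (adjusted p = 0.235 and 0.317).

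For the genes missing from the donor marrow, no difference between the depots passed the test. Gipr was 5.41 ± 0.44 (SD, n = 3) in ingWAT and 4.88 ± 0.99 (n = 4) in epiWAT, a difference of 0.53 (SE 0.42, adjusted p = 0.487). S100a9 was 5.82 ± 0.77 and 5.18 ± 0.33 (0.64, SE 0.44, adjusted p = 0.415), and S100a8 was 4.9 ± 0.26 and 5.26 ± 1.26 (-0.36, SE 0.67, adjusted p = 0.8). All of these arrays overlapped between depots, and their levels were low. The host of this marrow is not stated, so it is not known whether host cells carried intact copies of these genes. The position of the probes against the deleted parts is not stated in the labels either, so the values check no label. Of 16 S100 and alarmin receptor genes, 0 were called. Of 12 neutrophil and monocyte markers, 0 were called.

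Macrophage genes were lower in mean in ingWAT, without calls. Of 19 general macrophage markers, 17 had a negative difference and the median was -0.82, with medians of -0.9 and -0.91 with WT and Gipr-/- marrow. Ccr2, the receptor that recruits monocytes, was 8.31 ± 0.4 in ingWAT and 9.89 ± 0.88 in epiWAT without overlap (-1.58, SE 0.47, adjusted p = 0.0637). Itgam and Mertk differed by -1.7 and -1.14 (adjusted p = 0.0896 and 0.0939). Of 18 lipid-associated macrophage genes, 0 were called, with a median of -0.46. Trem2, their lipid-sensing receptor, was 5.25 ± 0.24 and 6.82 ± 0.79 without overlap (-1.57, SE 0.52, adjusted p = 0.0896). Without epiWAT arrays 1 and 3 the median of the general macrophage markers was -1.53, and 3 of them were called lower. Without ingWAT arrays 1 and 3 that median was -0.43. Their list score was -1.19, -0.6 and -0.7 in ingWAT and -1.09, 0.66, -0.25 and 0.43 in epiWAT, with overlap. For the lipid-associated list, epiWAT array 1 scored -1.26, below all ingWAT arrays. Wholly lower in ingWAT were 2 of 19 general and 2 of 18 lipid-associated members, against 8.95% of all genes tested. Lgmn, a lysosomal protease abundant in macrophages, was called lower, with 12.4, 12.16 and 13.23 against 14.23, 14.67, 14.41 and 13.87 (-1.7, adjusted p = 0.00798).

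Among 22 cytokines and chemokines, Cxcl14 was called higher and Ccl8 lower. Cxcl14, a chemokine of fibroblasts and skin, measured 7.94, 9.88 and 8.16 in ingWAT and 7.21, 5.43, 5.58 and 5.41 in epiWAT (2.75, SE 0.57, adjusted p = 0.0127) and held without either pair. Ccl8 measured 6.58, 7.58 and 7.14 against 8.17, 9.89, 9.2 and 8.86 (-1.93, adjusted p = 0.0311). Among 17 complement genes, C6 was called lower (-3.22, adjusted p = 0.00798). Of 21 interferon response genes and 21 endothelial genes, 0 were called, with medians of -0.01 and 0.18. Hdc, which makes histamine, was the 1 of 12 mast cell and eosinophil genes called higher, at 0.99 (adjusted p = 0.0363) with overlapping arrays. The calls of Ccl8, C6 and Hdc ended without the ingWAT pair (adjusted p = 0.343, 0.078 and 0.395), and that of Hdc also without the epiWAT pair (adjusted p = 0.284).

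Of 33 extracellular matrix genes, 2 (6.06%) were called lower, against 2.21% of all genes tested. They were Col6a1 (-1.23, adjusted p = 0.0344) and the matricellular gene Ccn2 (-1.47, adjusted p = 0.0462), both with overlapping arrays. Among 20 matrix proteases and inhibitors, Mmp3, stromelysin, was called higher, with 9.67, 10.46 and 9.59 against 6.45, 7.99, 6.31 and 7.41 (2.87, adjusted p = 0.0138). Timp1, a metalloprotease inhibitor, was called lower, with 3.7, 3.87 and 4.34 against 5.44, 6.83, 6.4 and 5.99 (-2.19, adjusted p = 0.00686). Plau, urokinase, was lower by the test as well (-2.33, adjusted p = 0.0111). Of 19 adipose progenitor markers, Fmo2 and Gpc3 were called lower (-1.6 and -2.08, adjusted p = 0.0311 and 0.0443). None of these 7 calls remained without the ingWAT pair, at adjusted p between 0.0675 and 0.553. Without the epiWAT pair the calls of Mmp3, Plau, Fmo2 and Gpc3 ended, at adjusted p between 0.0871 and 0.197, while 5 matrix genes were called lower. The matrix median of -0.08 became -0.69 without the epiWAT pair and 0.15 without the ingWAT pair, so its sign depended on the arrays.

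Among 14 imprinted growth genes, Nnat and Zim1 were called higher. Nnat, neuronatin, measured 17.49, 16.92 and 16.56 in ingWAT and 14.05, 15.44, 15.32 and 15.51 in epiWAT (1.91, adjusted p = 0.0207). Zim1, a zinc finger gene, differed by 2.64 (adjusted p = 0.0311). In the steroid list of 15 genes, Akr1c18, which inactivates progesterone, was called higher (2.27, adjusted p = 0.0196). Srd5a3, whose main known role is dolichol synthesis for protein glycosylation, was called lower (-1.41, adjusted p = 0.0127). The calls of Nnat, Zim1 and Akr1c18 ended without the ingWAT pair (adjusted p = 0.165, 0.449 and 0.0721) and without the epiWAT pair (adjusted p = 0.114, 0.2 and 0.118). Without the epiWAT pair the imprinted gene Mest was called lower (-2.03, adjusted p = 0.0079). Akr1c18 was also called with Gipr-/- marrow (4.93, adjusted p = 8.62e-05).

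Members of the secretory pathway and of the vacuolar proton pump were among the genes lower in ingWAT. These families and those of histones, ribosomal proteins and glutathione transferases were picked after the values were seen, so their counts are a description and not a test. Surf4, a receptor that carries cargo out of the endoplasmic reticulum, had the smallest adjusted p of all genes. It measured 11.55, 11.53 and 11.76 in ingWAT and 13.66, 13.26, 13.23 and 13.2 in epiWAT (-1.72, SE 0.17, adjusted p = 4.71e-05). Of 65 secretory pathway genes tested, 13 were called lower and 0 higher, 59 had a negative difference, and the median was -0.52. That median was -0.41 without the epiWAT pair, -0.32 with WT marrow and -0.02 with Gipr-/- marrow. The members called included the translocon-associated subunits Ssr2 and Ssr3 (-1.19 and -1.21, adjusted p = 0.0127 and 0.0186), the coat protein Sec31a (-1.32, adjusted p = 0.0195) and the cargo sorter Tmed4 (-1.39, adjusted p = 0.0092). Of 22 proton pump genes, 7 (31.8%) were called lower and 0 higher, with a median of -0.73. That median was -0.57 without the epiWAT pair, -0.31 with WT marrow and -0.29 with Gipr-/- marrow. Their list score in epiWAT arrays 1 to 4 was 0.51, 0.2, 0.34 and -0.08. Atp6v0e2, a membrane subunit, measured 5.76, 6.15 and 5.88 against 8.33, 8.73, 8.25 and 8.77 (-2.59, adjusted p = 0.00376). Of 20 glutathione transferases, 7 (35.0%) were called lower, with a median of -1.04. That median was -0.45 without the epiWAT pair, -0.45 with WT marrow and -0.14 with Gipr-/- marrow. Their list score was -0.69, -0.69 and -0.53 in ingWAT and 1.01, -0.02, 1.1 and 0.03 in epiWAT arrays 1 to 4. It was thus highest in epiWAT arrays 1 and 3, which held the epididymis genes. The part of epididymis RNA in these families was not tested. Gstm1 measured 15.44, 15.57 and 15.32 against 17.14, 17.4, 17.89 and 16.87 (-1.89, adjusted p = 0.00213). Its near-identical relatives can share probes, so single members of that family are uncertain. The members called in these 3 families fell to 1 each without ingWAT arrays 1 and 3, and to 3, 2 and 1 without epiWAT arrays 1 and 3. Among those named here, Surf4 held without either pair, and all of Ssr2, Ssr3, Sec31a, Tmed4, Atp6v0e2 and Gstm1 ended without the ingWAT pair, at adjusted p between 0.0542 and 0.148. Ssr2, Ssr3, Sec31a and Tmed4 also ended without the epiWAT pair, at adjusted p between 0.0505 and 0.138.

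Clustered histone genes were among the genes higher in ingWAT with double-knockout marrow. Of 52 tested, 22 (42.3%) were called higher, against 1.71% of all genes tested, and 0 lower. A positive difference was found in 50, and the median was 1.08. With WT and Gipr-/- marrow the medians were -0.21 and 0.08, and 1 and 0 members were called. When the depot difference was tested between kinds of marrow, as given below, 0 of 14503 genes passed against WT marrow. Against Gipr-/- marrow 7 histone genes passed. The list score was 0.65, 1.24 and 0.66 in ingWAT arrays 1, 2 and 3 and lay between -0.5 and 0.27 in epiWAT. Single members varied, and within ingWAT both H4c6 and H4c3 were lowest in array 2. H4c12 measured 12.27, 12.45 and 11.9 in ingWAT and 10.8, 10.32, 10.87 and 10.9 in epiWAT (1.49, SE 0.27, adjusted p = 0.00633) and held without either pair of arrays. H4c6 measured 11.64, 10.86 and 11.53 against 8.91, 9.5, 9.53 and 9.35 (2.02, SE 0.35, adjusted p = 0.00485). H4c3 measured 12.73, 11.23 and 12.6 against 10.1, 10.57, 10.8 and 10.56 (1.68, SE 0.29, adjusted p = 0.00497). H3c6 and H2ac8 differed by 1.66 and 1.74 (adjusted p = 0.0136 and 0.0186). Without ingWAT arrays 1 and 3, 14 histone genes were called and the median was 1.56. Without epiWAT arrays 1 and 3, 8 were called and the median was 0.96. H4c6 and H4c3 ended without the ingWAT pair (adjusted p = 0.145 and 0.286), and H3c6 and H2ac8 without the epiWAT pair (adjusted p = 0.0554 and 0.114). These genes are near-identical copies whose probes may share targets, so the members are not independent. Histone RNA is made in S phase and mostly lacks a poly(A) tail. Of 19 cell cycle genes, 0 were called and the median was 0.32, with Pcna at 0.69 (adjusted p = 0.132). The part of lymphocytes or of dividing cells in the histone difference was not tested.

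**Figure D5:**
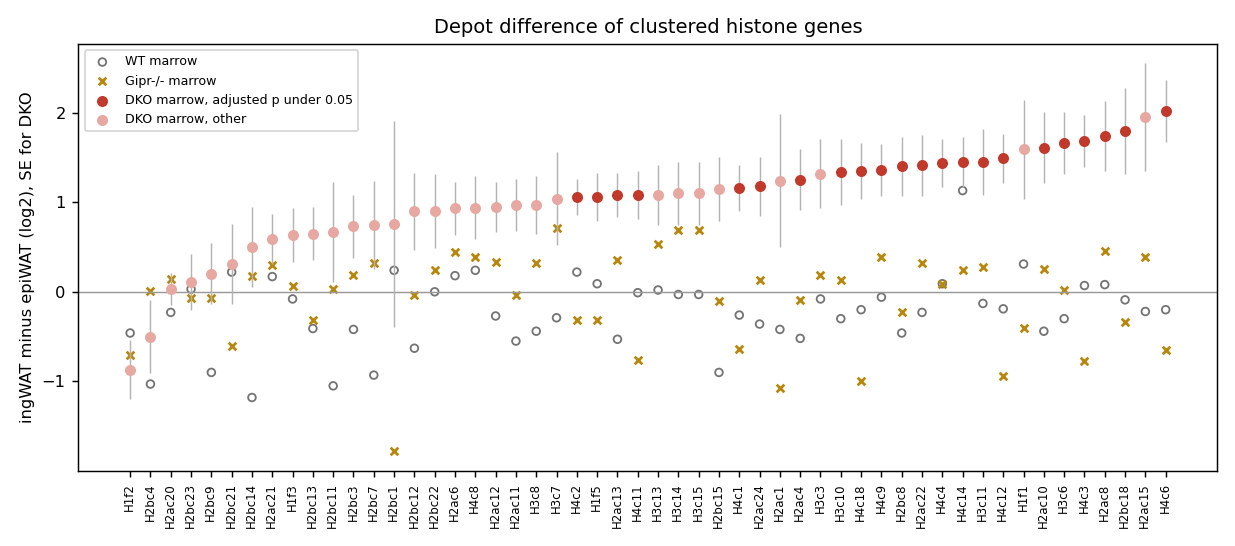
Difference between depots (ingWAT minus epiWAT, log2) of each of the 52 clustered histone genes tested, ordered by the difference with DKO marrow. Filled points are DKO marrow with bars of 1 SE, dark where called. Open circles are WT marrow and crosses Gipr-/- marrow, whose medians are -0.21 and 0.08 against 1.08 with DKO marrow. Tested directly, the depot difference with DKO marrow differed from that with WT marrow for 0 of 14503 genes.

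Histone promoters are known for shared elements, and the promoters of 2 H4 genes with the smallest p that have an entry are shown for that reason, in the same window, build and capitals as above. They lie at chr13:23551619-23551918, minus strand for H4c6 and chr13:23698409-23698708, minus strand for H4c3. Of the 52 histone genes tested, 48 have an entry. TATAAA occurs in 28 of these (58.3%) and CCAAT in 41 (85.4%), against 13.6% and 37.4% of all promoters in the table. The H4c3 sequence holds CCAAT 2 times and TATAAA 0 times, and the H4c6 sequence holds TATAAA once, at its first bases, and CCAAT 0 times.
H4c6: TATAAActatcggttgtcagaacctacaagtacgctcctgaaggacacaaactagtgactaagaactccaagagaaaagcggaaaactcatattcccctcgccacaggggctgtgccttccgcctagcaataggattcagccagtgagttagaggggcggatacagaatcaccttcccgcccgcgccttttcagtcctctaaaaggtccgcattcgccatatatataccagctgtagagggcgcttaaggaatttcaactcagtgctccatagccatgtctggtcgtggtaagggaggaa
H4c3: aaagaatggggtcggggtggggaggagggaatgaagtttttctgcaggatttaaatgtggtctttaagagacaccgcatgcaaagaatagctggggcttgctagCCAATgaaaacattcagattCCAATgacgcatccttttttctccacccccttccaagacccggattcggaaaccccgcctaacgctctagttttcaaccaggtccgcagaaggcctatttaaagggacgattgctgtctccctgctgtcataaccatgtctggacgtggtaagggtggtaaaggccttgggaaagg

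Ribosomal protein genes showed a smaller shift. Of 61 tested, 4 (6.56%) were called higher, against 1.71% of all genes tested. A positive difference was found in 54, with a median of 0.5 against -0.4 with WT and -0.73 with Gipr-/- marrow. When the depot difference was tested between kinds of marrow, 0 genes passed against WT marrow and 8 ribosomal protein genes against Gipr-/- marrow. Rpsa measured 14.02, 14.03 and 14.01 in ingWAT and 13.13, 12.35, 12.6 and 12.84 in epiWAT (1.29, SE 0.21, adjusted p = 0.00335). Rps15a, Rpl27 and Rpl35a differed by 1.46, 1.38 and 0.92 (adjusted p = 0.0207, 0.0363 and 0.0398). Without the ingWAT pair 0 ribosomal protein genes were called and the median was 0.42, with Rpsa at adjusted p = 0.0522. Without the epiWAT pair 11 were called and the median was 1.0. Processed pseudogenes of ribosomal proteins can share their probes.

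The difference between depots was itself compared between kinds of marrow. Against WT marrow, 0 of 14503 genes passed the test (limma, lowest adjusted p = 0.108), and 1238 had an unadjusted p under 0.05. The count was 276 without ingWAT array 2 and 2 without epiWAT array 1. Against Gipr-/- marrow, 104 genes (0.717%) passed, 50 (0.345%) with a more positive and 54 (0.372%) with a more negative difference under double-knockout marrow, and 70 of them were also called between the depots. This count was 7 without ingWAT array 1, 21 without ingWAT array 3, 542 without ingWAT array 2, and 47, 58 and 51 without epiWAT arrays 2, 3 and 4. It was 259 without epiWAT array 1. Surf4 differed by -1.72 with double-knockout and 0.04 with Gipr-/- marrow, so the change in the difference was -1.77 (adjusted p = 0.00362). Gpc4 went from 0.13 to -2.34 and Cers4 from 0.77 to -2.08. H4c12 differed by 1.49 with double-knockout and -0.94 with Gipr-/- marrow, and B3gnt5, a glycolipid-synthesising enzyme, by 3.63 and -0.71. Slc16a12, a creatine transporter, differed by -1.83 and 1.44. Among the 104 genes were 7 histone and 8 ribosomal protein genes. For 58 of them the 3 ingWAT arrays with double-knockout marrow lay outside all 7 other ingWAT arrays, and over all genes tested they lay above them for 2.25% and below them for 2.93%. The double-knockout arrays enter both this count and the contrast, so the count describes where the values lie and adds no support.

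The lists not described above held few or no calls in the comparison of the depots. Of 23 skin and gland epithelium markers only Lcn2 was called, and of 16 testis germ cell, 17 endoplasmic reticulum stress, 17 immediate early and 16 circadian clock genes, 0 were called. Calr and Hspa5, chaperones of the endoplasmic reticulum, differed by -1.12 and -1.02 without overlap (adjusted p = 0.0506 and 0.0724).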

How the data were processed

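RNA of whole fat (100 ng) was hybridised to 1-colour Affymetrix whole-transcript arrays, per the labels' protocols. The authors deposited 1 value per feature, taken here as log2 from the range of 1.92 to 19.91, since the labels state neither normalization nor log base. Partek 6.6 is among the tools in the submitters' processing notes. Of 21793 features, 19341 have 1 gene symbol and 2452 are unnamed here; the brighter of repeated features was kept (19337 genes), and the 25% with the lowest mean over 22 arrays were left out (14503 tested). The 22 arrays in 6 groups were fitted with limma 3.58.1 in R 4.3.3 (lmFit, eBayes with trend), two-sided, with Benjamini-Hochberg adjustment over all genes tested and a threshold of 0.05. In 10 simulations with 200 changed genes, 22.2%, 79%, 92.2% and 96.8% of changes of 1, 2, 3 and 4 log2 units were recovered. The simulated noise was normal and independent between genes and arrays, with each gene's spread pooled over the groups. It held no arrays that stood apart together, so these shares may not hold for the real arrays. The number of arrays sets the precision. The members and gene lists were chosen with earlier results of these data known. Genes named are the largest called differences, Gipr, S100a8 and S100a9, called members and up to 4 smallest-p members of each list, all patterning and Hox genes, and the smallest-p genes of each interaction; others were named after their values were seen. Alternatives changed scaling, filter, eBayes prior, array weights, threshold and arrays.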

Additional observations from a re-analysis of the deposited data

Results flagged for a closer look

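Among 96 genes and 41 gene lists checked in the 4 epiWAT arrays with double-knockout marrow, 9 genes and 2 list scores had a single array far from the others, judged by Dixon's gap over range; chance gives this in about 1 in 20 groups. Pcbd1 (gap over range 0.885), Surf4 (0.87) and Acly (0.873) were highest in array 1. Cxcl14 (0.906) was highest and Nnat (0.87) lowest in array 1. Cpt1a (0.868) was highest in array 2, Akr1c18 (0.946) highest in array 4, and Cxcr5 (0.833) and Cdh19 (0.833) lowest in array 3. The oxidative phosphorylation score (0.872) stood apart in array 4, and the adipokine score (0.856) in array 1.

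The difference between depots differed between double-knockout and Gipr-/- marrow for 104 genes by an interaction test in limma. The 10 with the smallest p, with the change in the difference, were Rpsa 2.49 (adjusted p = 0.000803), Surf4 -1.77 (adjusted p = 0.00362), Slc16a12 -3.27 (adjusted p = 0.00856), Fbxl4 -1.87 (adjusted p = 0.00856), H4c12 2.42 (adjusted p = 0.0114), Gpc4 -2.47 (adjusted p = 0.0129), Cers4 -2.84 (adjusted p = 0.0163), H4c3 2.45 (adjusted p = 0.0163), B3gnt5 4.35 (adjusted p = 0.0163) and Nsdhl -2.81 (adjusted p = 0.0204).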

How the results depend on the processing

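The settings without ingWAT arrays 1 and 3, or without epiWAT arrays 1 and 3, were chosen after seeing the data. The numbers called higher and lower were 108 and 92 without the ingWAT pair, 73 and 172 without the epiWAT pair, 6 and 8 with the 7 arrays alone, and 607 and 580 with array weights. Median centring gave 188 lower calls. Leaving out each of the 7 arrays in turn gave 42 to 515 higher and 56 to 502 lower calls. Against WT marrow the interaction count of 0 became 292 with array weights and 2 without the epiWAT pair, and 0 to 276 without single arrays. Against Gipr-/- marrow the count of 104 became 929 with array weights, 346 without the epiWAT pair, 5 without the ingWAT pair and 69 with no filter on low values, and 7 to 542 without single arrays. Without the ingWAT pair the difference turned sign for Cd79a (-0.08), Cd22 (-0.53), Cd8a (-0.3), Cd8b1 (-0.5), Cd3e (-0.09), Grap2 (-0.04), Cd4 (-0.11), Icos (-0.3), Ms4a1 (-0.12) and Cd79b (-0.66). Gipr turned to -0.28 without the epiWAT pair, and S100a8 ranged from -0.87 to 0.08 over the single arrays left out. Of 93 called genes named by rule, 19 kept their call without the ingWAT pair, 38 without the epiWAT pair and 82 with median centring. The cause was not tested, except that the settings with fewer arrays have fewer samples by construction. No paired analysis was possible because each title carries its own sample code, no code is shared between an ingWAT and an epiWAT sample, and no label says that any codes belong together. Signal near background limits the differences of Wt1, Shox2, Upk3b and other low genes.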
